A study of Mus musculus and Rattus norvegicus with 96 samples.

Results

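The genes described here were 10 transcripts that cells use when proteins misfold or amino acids run short: the transcription factors Atf4, Ddit3 and Xbp1, the ATF4 targets Asns, Trib3, Chac1, Ppp1r15a and Fgf21, and the endoplasmic reticulum genes Hspa5 and Herpud1. They were taken by symbol from the table of mouse liver RNA-seq counts, where they were 10 of 24543 listed genes, 18841 of which had a count in at least 1 library after rounding. The same symbols were read in the targeted count tables of rat liver, rat lung and the mouse hepatocyte line AML12.

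Unfolded protein in the endoplasmic reticulum is sensed by IRE1, PERK and ATF6. IRE1 splices the mRNA of Xbp1, ATF6 is cut to release a transcription factor, and PERK phosphorylates eIF2alpha, which slows protein synthesis as a whole while the translation of Atf4 rises. GCN2 phosphorylates the same site when amino acids are scarce, so both kinds of stress meet at ATF4, and in liver this circuit also sets the release of the fasting hormone FGF21.

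In Study 1, total RNA was sequenced from the livers of 12 male B6C3F1 mice of 10 to 11 weeks, of which 6 drank water (Con) and 6 drank 600 ppm phenobarbital (PB), an activator of drug metabolism, for 7 days. Each liver gave 4 preparations: frozen tissue (FR), frozen tissue later put into 70% ethanol and embedded in paraffin (FR > OH), frozen tissue later put into 10% neutral buffered formalin (NBF) and embedded (FR > FFPE), and fresh tissue fixed directly in 10% NBF for 18 to 24 h and embedded (FFPE), which made 8 groups of 6 libraries. TempO-Seq, in which pairs of detector oligos ligated on their target RNA are counted, was run on livers of male F344 rats (FR, FR > FFPE and FFPE), on lungs of male WKY rats (FR, FR > FFPE and fixed in NBF for 1 year, FFPE 1 yr), all with 6 libraries a group from vehicle control rats, and on AML12 cells in 4 groups of 3. Fixation in 10% NBF also lasted 18 to 24 h in the FR > FFPE groups of mouse and rat and in rat liver FFPE. The comparisons asked which expression differences went with fixation, whether prior freezing changed them, and whether a drug response could still be read. AML12 is an immortalised line from the liver of a mouse carrying a TGF-alpha transgene, and its cells received vehicle (phosphate buffered saline) or 0.006%, 0.03% or 0.1% NBF for 10 minutes. The age of the rats was not given in the sources used here.

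Several properties of the libraries moved with preparation. Mouse libraries held 4952797 to 13702672 counts, with FR at 11737338 to 13702672 and FFPE at 4952797 to 6760422, and the share of all reads that fell on genes averaged 48.5% in FR, 38.7% in FR > OH, 37.2% in FR > FFPE and 25.1% in FFPE. FR RNA was extracted with RNAzol and the embedded preparations with a kit for fixed tissue, and frozen and directly fixed samples were separate pieces of tissue from the same lobes. The authors report shorter fragmentation of FFPE samples in library preparation. They also report that FFPE blocks were kept at room temperature before RNA isolation. Sequencing lane, read here as the number after the letter L in the sample titles, was shared within a treatment by FR and FFPE libraries only for 2 PB libraries of each, which came from different mice. Within a treatment FR > FFPE and FR > OH shared no lane with FR, nor FFPE with FR > FFPE, so lane could be taken into account there only by a model over all 48 libraries. Frozen rat samples entered the assay as purified RNA and embedded ones as lysates, so these 2 properties cannot be told apart either. In bulk tissue, fewer cells of a type and less RNA per cell also cannot be told apart.

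In FR livers of Con mice the 10 genes spanned more than 2 orders of magnitude per kilobase of exon. Hspa5, which encodes the chaperone BiP, stood at 293.3 ± 74.9 CPM (counts scaled to a library total of 1000000 counts on genes) per kilobase (SD, n = 6), followed by Xbp1 at 92.2 ± 16.6 and Herpud1, a partner of the degradation complex of the endoplasmic reticulum, at 84.7 ± 29.7. Xbp1 and Herpud1 did not differ beyond their spread. Atf4 followed at 32.7 ± 4.77 CPM per kilobase. The other 6 genes lay low and close together, from Fgf21 at 4.73 ± 3.17 through Asns at 3.56 ± 1.82, Chac1 at 2.48 ± 1.55, Ppp1r15a at 2.47 ± 0.256 and Ddit3 at 1.34 ± 0.321 to Trib3 at 1.29 ± 0.574 CPM per kilobase, and neighbours in this order did not differ beyond their spread, with the exception of Ppp1r15a, whose lowest value of 2.23 lay above the highest of Ddit3, 1.74.

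The proximal promoters show which control letters these genes carry, and were searched on both strands in RefSeq sequence (GRCm38.p6) from 250 bases before to 50 bases after each start. The CARE, bound by ATF4 with a C/EBP partner, was searched as TGATGNAA and occurred in 3.97% of 32851 promoters and in 5 of the 10 here (Asns, Chac1, Fgf21, Herpud1 and Trib3). The ERSE, bound by ATF6 and XBP1 with NF-Y, was searched as CCAAT, 9 bases and CCACG and occurred in 0.119% of promoters and here in that of Hspa5. The related ERSE-II, searched as ATTGG, 1 base and CCACG, was added after these promoters had been seen. It occurred in 0.0365% of promoters and here in that of Herpud1, and the XBP1 element TGACGTGG, present in 0.676%, occurred in 0 of the 10. Below, capitals mark the matches, and each stretch reads 5′ to 3′ on the strand of its gene. A match is a description of letters, not a measured site.
Hspa5 promoter, chr2:34771985-34772083, plus strand, ERSE in capitals: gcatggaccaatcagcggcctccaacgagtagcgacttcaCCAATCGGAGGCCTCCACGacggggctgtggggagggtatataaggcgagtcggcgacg
Herpud1 promoter, chr8:94386277-94386427, plus strand, CARE (on the opposite strand) and then ERSE-II in capitals: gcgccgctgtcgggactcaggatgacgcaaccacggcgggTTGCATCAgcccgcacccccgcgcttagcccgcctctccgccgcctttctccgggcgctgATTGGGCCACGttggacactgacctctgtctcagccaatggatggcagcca
Asns promoter, chr6:7693210-7693272, minus strand, CARE in capitals: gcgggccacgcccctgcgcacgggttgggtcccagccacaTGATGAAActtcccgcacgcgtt
Chac1 promoter, chr2:119351009-119351096, plus strand, CARE (on the opposite strand) in capitals: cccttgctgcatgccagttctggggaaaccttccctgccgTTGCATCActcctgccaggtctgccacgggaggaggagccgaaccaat
Fgf21 promoter, chr7:45615582-45615669, minus strand, CARE (on the opposite strand) in capitals: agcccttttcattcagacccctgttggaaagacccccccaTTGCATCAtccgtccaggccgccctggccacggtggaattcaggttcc
The first 2 stretches show the elements found in the endoplasmic reticulum genes, and the other 3 show that Asns, Chac1 and Fgf21 share the same 8-base pattern. In Chac1, Fgf21 and Herpud1 the 8 letters were identical.

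Direct fixation went with a lower level of Hspa5 and a higher level of Ppp1r15a. A differentially expressed gene (DEG) had an adjusted p under 0.05 and at least a 2-fold change in Con and in PB mice alike (edgeR quasi-likelihood test, Benjamini-Hochberg adjustment over 13360 genes), and 1 of the 10 genes, Ppp1r15a, was a DEG for FFPE vs. FR, beside 10.8% of all genes tested. By adjusted p alone 4 of 10 passed in both treatments, Atf4, Ppp1r15a and Xbp1 higher and Hspa5 lower, beside 51.2% of all genes. Both shares lay near or below those of all genes. The median log2 change was 0.27 over the 10 genes and 0.32 over all genes tested.

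Hspa5 (chr2:34772090-34776529, plus strand, mm10 as are the positions below) in FR Con livers was 723.3, 1225 and 1578 CPM (lowest, median, highest; 1240.5 ± 316.8, SD, n = 6) and in FFPE Con livers 366.9, 574.6 and 849.1 (606 ± 162.3). In PB mice it was 1053, 1283 and 1487 CPM in FR against 546, 658 and 786 in FFPE. The ranges overlapped in Con mice, where 1 FR library was low, and were separate in PB mice, while within a mouse FFPE lay below FR in 12 of 12. The log2 change was −1.01 (SE 0.125, adjusted p = 1.08e-09 by edgeR), with −1.03 in Con and −0.99 in PB, the second just short of 2-fold. The sign was the same under every scaling tried, from −1.01 to −1.97.

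Ppp1r15a (chr7:45522917-45526268, minus strand) encodes GADD34, which brings a phosphatase to eIF2alpha and so restarts protein synthesis. It was 6.56, 6.96 and 8.68 CPM in FR Con (7.26 ± 0.752) and 12, 14.1 and 21.1 in FFPE Con (15.2 ± 3.61), and 5.24, 6.08 and 7.1 in FR PB against 10.7, 14.7 and 19.8 in FFPE PB. Every FFPE library was above every FR library in both treatments, a separation seen in 33.5% of all genes in Con and 33.8% in PB, and the log2 change was 1.15 (SE 0.108, adjusted p = 5.68e-13 by edgeR). It depended on the scale in size: 0.86 with TMM library sizes and 0.18 (adjusted p = 0.0572) scaled to all reads, those off genes included.

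The 3 transcription factors changed less, and their sign rested on the scale. Atf4 (chr15:80255184-80257545, plus strand), the factor at the centre of the amino acid response, was 63.1, 76.6 and 96.2 CPM in FR Con against 91.4, 100.2 and 160.5 in FFPE Con, and was higher in FFPE in 12 of 12 mice. The ranges touched through 1 high FR and 1 low FFPE library, and the log2 change was 0.49 (SE 0.0961, adjusted p = 1.69e-05 by edgeR). Xbp1 (chr11:5520641-5525993, plus strand), the mRNA spliced by IRE1, was 255.9, 286.7 and 398.8 CPM in FR Con against 289.3, 366.4 and 519.4 in FFPE Con, with a log2 change of 0.33 (SE 0.0901, adjusted p = 0.00127 by edgeR). Ddit3 (chr10:127290793-127296288, plus strand), which encodes the pro-apoptotic factor CHOP, was 1.38, 2.37 and 2.98 CPM in FR Con against 1.72, 3.1 and 6.06 in FFPE Con, with a log2 change of 0.61 (SE 0.203, adjusted p = 0.00729 by edgeR) that passed in the mean of both treatments but not in each. Relative to the median of all genes these changes were 0.17, 0.01 and 0.29, and scaled to all reads all 3 turned negative, to −0.47 for Atf4, −0.63 for Xbp1 and −0.33 for Ddit3. With TMM none of the 3 passed (0.2, adjusted p = 0.0507, for Atf4, 0.05, 0.667, for Xbp1 and 0.33, 0.141, for Ddit3).

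Asns, Fgf21 and Herpud1 did not pass the test between independent groups and did pass when each mouse was its own block. Asns (chr6:7675171-7693182, minus strand), which makes asparagine, was lower in FFPE than in FR of the same mouse in 12 of 12 mice, with a median log2 difference of −0.62 and a range from −2.15 to −0.02. Its adjusted p by edgeR was 0.17 without and 2.5e-06 with the mouse as a block. For Fgf21 these values were 0.181 and 0.00155 at log2 changes of −0.71 and −0.75, for Herpud1 0.161 and 1.77e-09 at −0.26, and for Trib3 (chr2:152337425-152344060, minus strand), a pseudokinase that binds ATF4, 0.0947 and 8.91e-05 at 0.45. Chac1 (chr2:119351242-119354327, plus strand), which degrades glutathione, gave 0.22 (adjusted p = 0.609). Counts were few in FFPE libraries. Asns had 3 to 60 counts a library in FFPE Con and 2 to 38 in FFPE PB, and Fgf21 had 2 to 33 and 0 to 10. Scaled to all reads, Asns (−1.57, adjusted p = 0.000863), Fgf21 (−1.65, 0.00114) and Herpud1 (−1.2, 1.24e-08) passed without the block, and Trib3 turned to −0.53 with limma.

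Where lane was shared, 2 FFPE libraries of PB mice 75C and 80B and 2 FR libraries of PB mice 18B and 18D gave the same direction for Hspa5 (737.8 against 1155 CPM, −0.64) and Ppp1r15a (12.9 against 6.02 CPM, 1.09), and the opposite direction for Asns (4.62 against 2.11 CPM, 1.05). The mice differed in Asns in frozen tissue too, where 75C and 80B stood at 4.31 and 7.37 CPM and 18B and 18D at 2.02 and 2.2. With lane as a term in a fit of FFPE and FR alone, which rests on these 4 libraries and their mice, Ppp1r15a gave 0.94 (adjusted p = 0.00172), Hspa5 −0.71 (0.0298) and Asns 0.68 (0.548) by edgeR, and 0 of the 10 genes were DEGs. With the mouse as a block and lane as a term over all 48 libraries, a fit added after the data were seen that takes each preparation effect as equal in Con and PB, Hspa5 gave −1.08 (adjusted p = 6.57e-16), Ppp1r15a 0.97 (0.000147), Atf4 0.56 (2.83e-05), Xbp1 0.38 (9.46e-06) and Herpud1 −0.27 (0.00916). In that fit Ddit3 (0.44, adjusted p = 0.339), Asns (−0.68, 0.052), Fgf21 (−0.34, 0.677), Trib3 (0.39, 0.146) and Chac1 (0.17, 0.749) did not pass.

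Cell type markers also differed between FR and FFPE. The summed level of the hepatocyte markers was 63018.5 to 88761.5 CPM in FR Con and 27887 to 37114 in FFPE Con, and 4 of the 5 (Alb, Apoa1, Fgb and Ttr) were lower DEGs. Red blood cell markers summed to 395.9 to 623.8 CPM in FR Con and 216.9 to 386.9 in FFPE Con, with 2 of 4 lower DEGs (Hba-a2 and Hbb-bs). Stellate cell markers went from 295 to 427.7 CPM in FR Con to 192.7 to 295.6 in FFPE Con and from 301 to 413 in FR PB to 223 to 289.2 in FFPE PB, with 1 of 4 lower (Dcn), and smooth muscle markers from 7.37 to 11.1 CPM in FR Con to 11.8 to 22.2 in FFPE Con, with 1 of 3 higher (Myh11). Of the Kupffer cell, endothelial and cholangiocyte markers 0 of 5, 0 of 4 and 0 of 4 were DEGs. The part of these cells in the results was not tested. Pancreatic acinar markers summed to at most 0.902 CPM in any mouse library.

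**Figure D1:**
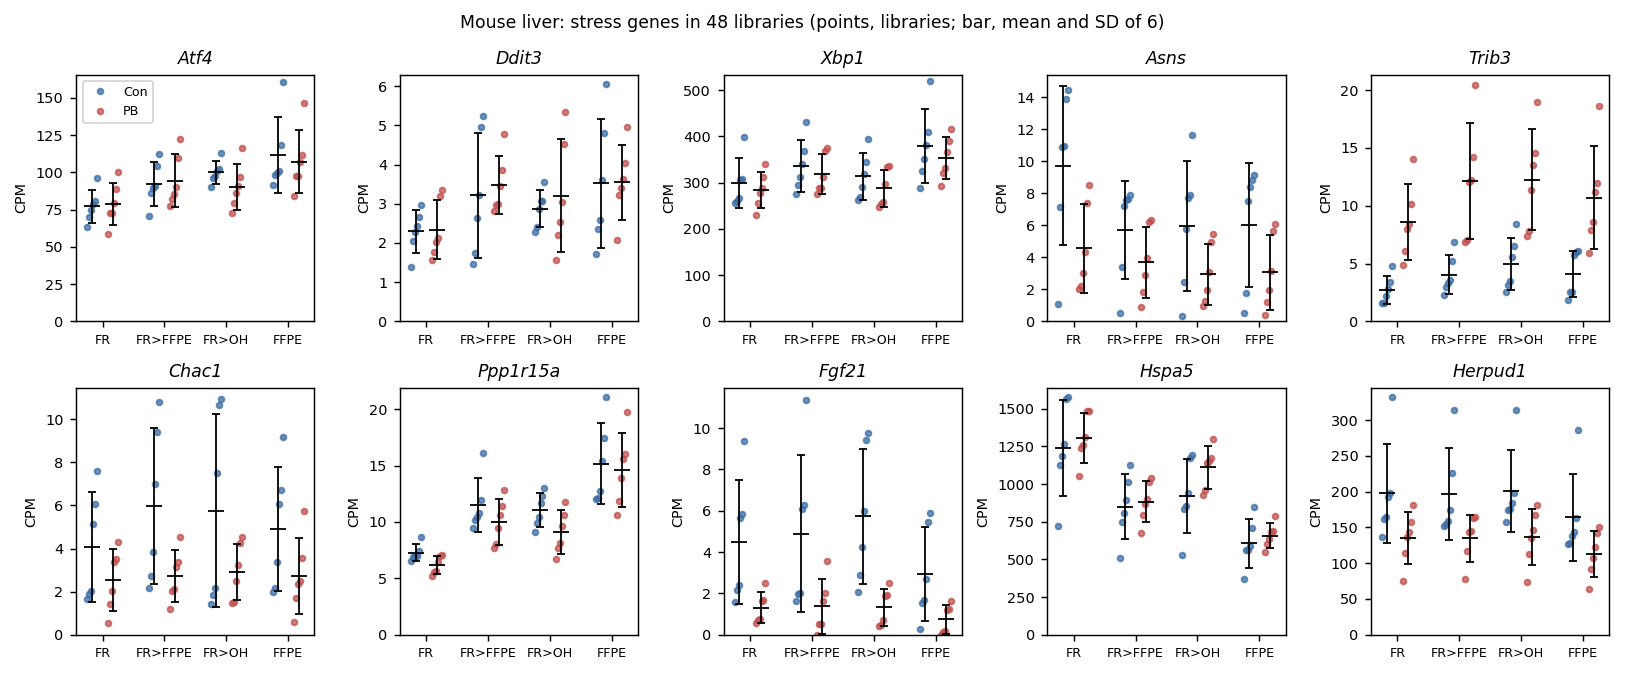
CPM (vertical axis of each panel) of the 10 genes in the 48 mouse liver libraries, by preparation and treatment, with points for libraries and the mean ± SD of 6. Every FFPE point of Ppp1r15a lies above every FR point, and the PB means of Trib3 lie above the Con means (8.6 against 2.74 in FR) while those of Fgf21 lie below (1.31 against 4.49 in FR).

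With freezing before fixation, Ppp1r15a was again higher and Hspa5 lower than in FR. For FR > FFPE vs. FR, 0 of 10 genes were DEGs beside 3.98% of all genes (0 also with DESeq2), and 5 of 10 had an unadjusted p under 0.05 beside 67.9% of all genes. Ppp1r15a stood at 9.46, 10.6 and 16.1 CPM in FR > FFPE Con and 7.65, 10 and 12.8 in PB, apart from FR in both treatments (24.7% and 32.1% of all genes), with a log2 change of 0.67 (SE 0.107, adjusted p = 5.03e-07 by edgeR). Hspa5 stood at 508.7, 849 and 1128 CPM in Con, with a log2 change of −0.56 (SE 0.124, adjusted p = 0.000131 by edgeR), lower than FR in 12 of 12 mice. Ddit3 gave 0.52 (adjusted p = 0.0192) and Atf4 0.26 (adjusted p = 0.0153), of which Ddit3 did not pass with TMM (0.21, adjusted p = 0.364) and Atf4 turned to −0.04 with TMM and −0.12 scaled to all reads. With the mouse as a block, Asns at −0.55 (adjusted p = 1.29e-05), Trib3 at 0.53 (1.92e-06), Xbp1 at 0.17 (1.2e-06) and Chac1 at 0.35 (0.0275) also passed, against adjusted p-values of 0.233, 0.0522, 0.0976 and 0.384 without it. With a lane term added to the block, Ppp1r15a (0.71, adjusted p = 0.000744), Hspa5 (−0.43, 2.96e-07), Asns (−0.54, 0.0474) and Chac1 (0.77, 0.0454) passed, while Ddit3 (0.53, 0.155), Atf4 (0.098, 0.406), Trib3 (0.35, 0.121) and Xbp1 (0.063, 0.396) did not.

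Ethanol in place of formalin also went with a higher level of Ppp1r15a and, unless lane was a term, a lower one of Hspa5. For FR > OH vs. FR, 0 of 10 genes were DEGs beside 2.55% of all genes (0 also with DESeq2), and 4 of 10 had an unadjusted p under 0.05 beside 59.2% of all genes. Ppp1r15a stood at 9.07, 11.1 and 13 CPM in FR > OH Con, above every FR Con library as 23.9% of all genes were apart, and at 6.76, 8.89 and 11.8 in PB, where the ranges overlapped as did those of all 10 genes (17.3% of all genes were apart). Its log2 change was 0.58 (SE 0.107, adjusted p = 9.66e-06 by edgeR). Trib3 was higher by 0.68 (SE 0.229, adjusted p = 0.0108) and in 12 of 12 mice (0.5, adjusted p = 0.0582, with TMM), Hspa5 lower by −0.33 (SE 0.124, adjusted p = 0.0215), and Atf4 gave 0.29 (adjusted p = 0.0101), which turned to −0.043 scaled to all reads. As a block, the mouse brought Ddit3 (0.38, adjusted p = 0.0224), Asns (−0.72, adjusted p = 1.75e-07) and Chac1 (0.33, adjusted p = 0.047) past the threshold. With lane as a further term Ppp1r15a alone of the 10 passed (0.85, SE 0.291, adjusted p = 0.037), at −0.22 (0.168) for Hspa5, 0.59 (0.214) for Trib3, 0.13 (0.641) for Atf4, 0.64 (0.459) for Ddit3, −0.63 (0.322) for Asns and 1.25 (0.0963) for Chac1.

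Set directly against FR > FFPE, FFPE had lower Hspa5 (−0.46, adjusted p = 0.0042) and higher Ppp1r15a (0.48, adjusted p = 0.000573, but −0.101 scaled to all reads) in the mean of both treatments, and 0 of 10 genes were DEGs beside 0.127% of all genes (0 also with DESeq2). At an unadjusted p under 0.05 there were 3 of 10 beside 38.7% of all genes. No gene of the 10 had separate ranges there, beside 4.32% of all genes in Con and 5.67% in PB. With the mouse as a block, Atf4 (0.22, adjusted p = 6.32e-05), Xbp1 (0.16, 1.43e-05), Fgf21 (−0.78, 0.0032) and Herpud1 (−0.27, 9.75e-09) passed as well. These preparations shared no lane within a treatment, and with lane as a further term Hspa5 alone of the 10 passed (−0.65, SE 0.115, adjusted p = 0.000279), at 0.26 (0.735) for Ppp1r15a, 0.46 (0.114) for Atf4, 0.31 (0.0802) for Xbp1, −0.11 (0.968) for Fgf21 and −0.27 (0.266) for Herpud1. The hepatocyte sum of Con mice was 49996 to 66012 CPM in FR > OH and 43261 to 60413 in FR > FFPE, the first reaching into the FR range and both above that of FFPE.

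**Figure D2:**
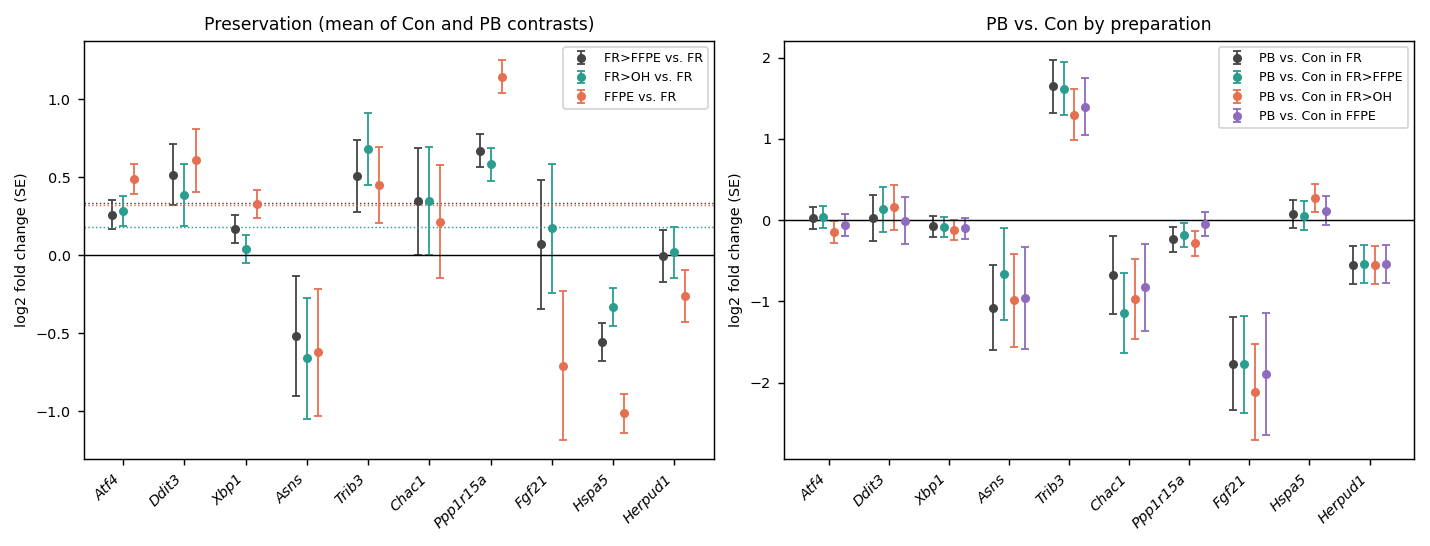
Log2 fold change (vertical axis, with SE bars) of each of the 10 genes, for FR > FFPE, FR > OH and FFPE vs. FR on the left, with the median of all genes as dotted lines, and for PB vs. Con in the 4 preparations on the right. Hspa5 goes from −0.33 in FR > OH to −1.01 in FFPE, Ppp1r15a reaches 1.15 in FFPE, and Trib3 and Fgf21 lie on opposite sides of 0 under PB in all 4 preparations.

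PB moved 2 of the 10 genes in FR livers, Trib3 up and Fgf21 down, beside 2% of all genes (2-fold and an adjusted p under 0.05). Trib3 was 1.57, 2.53 and 4.77 CPM in FR Con (2.74 ± 1.22, SD, n = 6) and 4.85, 8.25 and 14 in FR PB (8.6 ± 3.25). The ranges did not overlap, as in 5.42% of all genes, and the log2 change was 1.65 (SE 0.329, adjusted p = 0.00049 by edgeR). The gene gave 1.62 (adjusted p = 0.000617) in FR > FFPE, 1.3 (0.00396) in FR > OH and 1.4 (0.00854) in FFPE. It was thus a DEG in all 4 preparations. These came from the same mice, and Trib3 correlated at 0.73 to 0.95 between them after removal of the treatment means. They are therefore repeated measurements and not independent results. The edgeR fit took the libraries of a mouse as independent, so its p-values for PB can be too small, here and for the genes below. The ranges of Con and PB were apart in FR > FFPE (2.28 to 6.87 against 6.9 to 20.4 CPM) beside 3.65% of all genes, and overlapped in FR > OH and FFPE, where 5.41% and 2.85% of all genes were apart. Within a lane, 4 PB against 6 Con FFPE libraries gave 1.57, 2 against 6 FR libraries 1.29 and 6 against 3 FR > OH libraries 1.63, while Con and PB shared no lane in FR > FFPE.

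Fgf21 (chr7:45613890-45615490, minus strand), the fasting hormone, was 1.57, 4.02 and 9.38 CPM in FR Con (4.49 ± 3.02, SD, n = 6) and 0.573, 1.19 and 2.53 in FR PB (1.31 ± 0.759). The ranges overlapped, with 3 Con mice below the highest PB mouse. The log2 change was −1.77 (SE 0.568, adjusted p = 0.0412) in FR, −2.12 (0.0123) in FR > OH, −1.78 (0.0567) in FR > FFPE and −1.9 (0.131) in FFPE by edgeR. The DEG counts were thus 2 in FR > OH (2.42% of all genes), 1 in FR > FFPE (1.86%) and 1 in FFPE (1.92%), and with the mouse as a block (limma, with a correlation estimated within mice, since a mouse had 1 treatment) Fgf21 passed in FR > FFPE too, at −2.28 (SE 0.611, adjusted p = 0.00992). PB differed between mice only, so this block added no animals. It used 1 correlation for all genes, so p-values can be too small for genes that correlate more closely within mice. Without Con mouse 21C, the highest in FR, it gave −1.41 (adjusted p = 0.126) in FR. With limma on the deposited log2 values it passed in no preparation, with an adjusted p of 0.735 in FR and 0.521 in FR > OH.

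Herpud1, Asns and Chac1 were lower under PB in every preparation without passing the test between groups. Herpud1 (chr8:94386500-94395358, plus strand) gave −0.55 in FR, −0.54 in FR > FFPE, −0.56 in FR > OH and −0.54 in FFPE (adjusted p = 0.149, 0.182, 0.12 and 0.19 by edgeR), and passed in the first 3 with that block (adjusted p = 0.0166, 0.0273 and 0.00996). Its levels correlated at 0.96 to 0.98 between preparations over mice, so these 3 block values can be too small. In FR it was 136.8, 178.4 and 331.6 CPM in Con and 75.5, 140.2 and 181 in PB, and the ranges overlapped. Asns was 1.1, 10.9 and 14.4 CPM in FR Con and 2.02, 3.65 and 8.54 in FR PB. Its low Con value was that of mouse 21C, which stood at 0.333 to 1.1 CPM in all 4 preparations, and Asns gave −1.08 (adjusted p = 0.222) in FR with and −1.32 (adjusted p = 0.0361) without this mouse. Chac1 gave −0.68 to −1.14 (adjusted p = 0.174 to 0.454). Within a lane Chac1 gave 0.17 in FR (2 PB against 6 Con libraries), −1.06 in FFPE (4 against 6) and −0.4 in FR > OH (6 against 3). Herpud1 and Asns were lower within each of these lanes.

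The PB response of the 10 genes did not differ detectably between preparations. For the difference of the PB effect in FFPE, FR > FFPE and FR > OH from that in FR, 0 of 10 genes passed, beside 0% of all genes in each, and 0 of 10 had an unadjusted p under 0.05, beside 3.47%, 2.16% and 2.27% of all genes (edgeR, with 0 also by DESeq2). These comparisons share the FR libraries, and both fits take the libraries of a mouse as independent. With the mouse as a block 0 of 10 genes passed as well. The hepatocyte sum was lower under PB in FR, at 46139 to 73703 CPM against 63018.5 to 88761.5 in Con, and its part in the PB values was not tested.

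**Figure D3:**
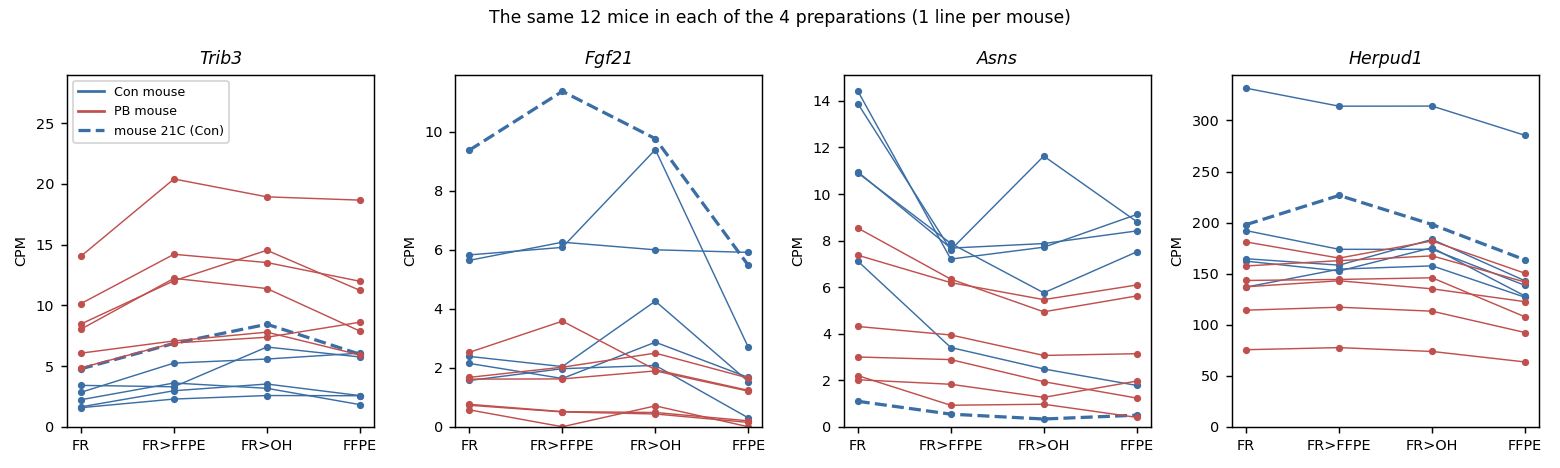
CPM (vertical axis) of Trib3, Fgf21, Asns and Herpud1 over the 4 preparations, with 1 line for each of the 12 mice and Con mouse 21C dashed. Lines stay in much the same order from preparation to preparation, and among Con mice 21C is lowest for Asns in all 4 and highest for Fgf21 in FR at 9.38 CPM.

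A mouse kept its place for most genes from one preparation to another. Across the 12 mice, after removal of the treatment means, the median correlation between preparations was 0.97 for Herpud1, 0.96 for Hspa5 and Asns, 0.94 for Xbp1, 0.88 for Trib3, 0.86 for Fgf21, 0.8 for Atf4 and 0.73 for Chac1, and it was 0.46 for Ppp1r15a and 0.36 for Ddit3. These are descriptions, since the preparations share the animal. Mouse 21C combined the lowest Asns of the Con mice with Fgf21 at 9.38, 11.4, 9.77 and 5.47 CPM and Trib3 at 4.77, 6.87, 8.44 and 5.97 CPM in FR, FR > FFPE, FR > OH and FFPE, so the targets of ATF4 did not move as 1 group in this animal.

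No relation between pairs of the 10 genes passed the test over the 12 mice. Of 45 pairs, 0 passed Benjamini-Hochberg adjustment of permutation p-values and 6 had an unadjusted p under 0.05. The strongest was Xbp1 with Trib3 (Pearson's r = −0.79, Spearman's rho = −0.79, permutation p = 0.0053, adjusted p = 0.2), which gave −0.8 without the 2 mice farthest from the median. In FR libraries alone 2 pairs passed, and the strongest there were Chac1 with Fgf21 (r = −0.85) and Ppp1r15a with Fgf21 (r = 0.85). The genes whose pattern over the 12 mice was most like that of Hspa5, among 12299, were Manf (r = 0.97), Sel1l (0.94), Creld2 (0.94), Tfg (0.91) and Saraf (0.9), of which Manf and Creld2 are luminal proteins of the endoplasmic reticulum and Sel1l belongs to its degradation complex. For Ddit3 they were Thumpd3 (0.86), Gata6 (0.85), Eif4a3 (0.84), Fam162a (0.84) and Golph3l (0.83). Both lists are the highest of 12299 genes over 12 mice, with no test. Ddit3 had 9 to 53 counts a library and a median correlation of 0.36 between preparations.

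Other genes of the pathway were counted by the same rule, beside the 10.8% of all genes that were DEGs for FFPE vs. FR. Of 12 sensors and eIF2alpha kinases tested, 0 were DEGs, as were 0 of 12 tRNA synthetases and 0 of 15 other chaperones and folding enzymes, where the median log2 change was −0.51 and 11 of 15 were lower by adjusted p alone in both treatments beside 11.7% of all genes. Of 21 other amino acid response genes 2 were higher, Atf5 (1.73, SE 0.0873, adjusted p = 7.11e-22), a factor translated like Atf4, and Gdf15 (1.55, SE 0.318, adjusted p = 3.38e-05), a stress hormone. Of 16 degradation and translocation genes, the ubiquitin ligase Syvn1 was higher (1.19) and the translocon subunits Sec61b (−1.1) and Sec61g (−1.5) were lower. For these lists only the main scale is given. The median of all genes was 0.32 on it and −0.63 scaled to all reads, so the size of each change depends on the scale. Atf5 (1.22) and Gdf15 (1.14) were DEGs for FR > OH vs. FR too, and 0 genes of these lists for FR > FFPE vs. FR.

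Gdf15 was the gene of these lists that PB moved in every preparation. It was 0.341 to 1.81 CPM in FR Con and 2.26 to 8.28 in FR PB, with separate ranges. The log2 change was 2.3 (SE 0.452, adjusted p = 0.000394 by edgeR) in FR. Gdf15 gave 2.47 (3.94e-05) in FR > FFPE, 2.1 (0.000305) in FR > OH and 2.33 (0.000162) in FFPE. The preparations came from the same mice, so the limit given above on edgeR p-values for PB applies here too.

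In rat liver, embedded tissue had more Atf4, Xbp1 and Ppp1r15a and less Hspa5 and Asns than frozen tissue. The targeted tables gave a count to 2652 genes in liver and 2754 in lung, and 9 of the 10 were tested in each, Fgf21 having too few counts. Of these 9, 6 were DEGs for FR > FFPE vs. FR beside 49.9% of all genes and 8 for FFPE vs. FR beside 64.3% (edgeR with TMM, adjusted over 2281 genes). In each comparison the ranges of 8 of 9 genes were apart, 4 higher and 4 lower, beside 46.3% and 64.1% of all genes. Ranges and levels in rat are CPM after TMM scaling unless stated otherwise.

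Hspa5 had the widest fall, at 1781, 2018 and 2345 CPM in FR, 106.3, 338.8 and 762 in FR > FFPE and 111.1, 199.5 and 239.4 in FFPE. No embedded library reached a frozen one. The log2 changes were −2.5 (SE 0.337, adjusted p = 7.18e-07) and −3.39 (SE 0.354, adjusted p = 4.43e-09) by edgeR. Herpud1 moved the same way, from 501.9, 552.4 and 690.3 CPM in FR to 255.4, 352.4 and 466.7 in FR > FFPE and 208.7, 260.5 and 412.3 in FFPE (−0.63, adjusted p = 0.00487, and −1, adjusted p = 4.3e-05), but turned positive with total counts as library size (0.076 and 0.63).

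The transcription factors split. Atf4 was 191.4, 200.3 and 287.1 CPM in FR, 360.5, 439.1 and 767.7 in FR > FFPE and 424.1, 890.8 and 1012 in FFPE, with log2 changes of 1.17 (SE 0.209, adjusted p = 2.89e-05) and 1.94 (SE 0.214, adjusted p = 1.03e-08). Xbp1 was 35.2, 85.7 and 108 CPM in FR, 168.7, 369 and 940.1 in FR > FFPE and 171.7, 313.6 and 360.3 in FFPE (2.5 and 1.91). Ddit3 went the other way, from 45.2, 56.1 and 65.2 CPM in FR to 24.2, 30.5 and 36.3 in FR > FFPE and 10.1, 21.8 and 31.3 in FFPE, with −0.88 (adjusted p = 0.000117, short of 2-fold) and −1.36 (SE 0.204, adjusted p = 1.29e-06), the second of which was 0.21 with total counts as library size. After TMM scaling all 3 had separate ranges between frozen and embedded liver. In CPM of the total counts those of Ddit3 overlapped, at 26.45 to 36.94 in FR, 26.89 to 31.76 in FR > FFPE and 28.68 to 54.47 in FFPE.

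The ATF4 targets did not move together either. Ppp1r15a rose from 9.51, 16.1 and 19.2 CPM in FR to 22.8, 38.4 and 71.8 in FR > FFPE and 44.8, 74.1 and 101.1 in FFPE (1.49, adjusted p = 2.8e-05, and 2.19, adjusted p = 1.05e-07). Asns fell from 19.9, 26.9 and 34.2 CPM to 2.47, 7.92 and 15.7 and to 0, 6.35 and 11.3 (−1.8, adjusted p = 2.56e-05, and −1.96, adjusted p = 5.63e-05, the second −0.43 with an adjusted p of 0.387 with total counts). Trib3 overlapped, at 17.1, 34.7 and 46.3 against 18.1, 46.3 and 61.2 and 5.05, 30.7 and 40.8 CPM (0.28, adjusted p = 0.398, and −0.2, adjusted p = 0.587, which was 1.38 with total counts). Chac1 had 3 counts in all FR libraries, 42 in FR > FFPE and 46 in FFPE, ratios of 10.5 (95% counting interval 3.36 to 53) and 42.9 (13.8 to 215.7) after scaling, and 23 of the 42 came from 1 library.

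Between the 2 embedded preparations of rat liver, Chac1 was the 1 DEG of 9 (2.04, adjusted p = 0.00212) beside 34.1% of all genes, and 0 of 9 had separate ranges beside 25.6%. By adjusted p alone Atf4 (0.78, 0.00263), Hspa5 (−0.89, 0.0247) and Ppp1r15a (0.7, 0.0252) passed as well, and Hspa5 did not without the shallowest FFPE library (−0.79, adjusted p = 0.0725) or with total counts (−0.03, adjusted p = 0.944). FFPE liver libraries held 139475 to 889128 counts against 2156625 to 3970187 in the others, and TMM factors ran from 0.559 to 0.605 in FR to 1.351 to 2.844 in FFPE. The hepatocyte sum was 280562 to 408432 CPM in FR, 156708.7 to 293585.6 in FR > FFPE and 33639.6 to 116921.8 in FFPE, with Tat listed at 0. The cholangiocyte list, of which 2 of 4 markers had counts, was 4.69 to 9.84 CPM in FR and 15.7 to 34.2 in FFPE. Their part in the results was not tested.

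**Figure D4:**
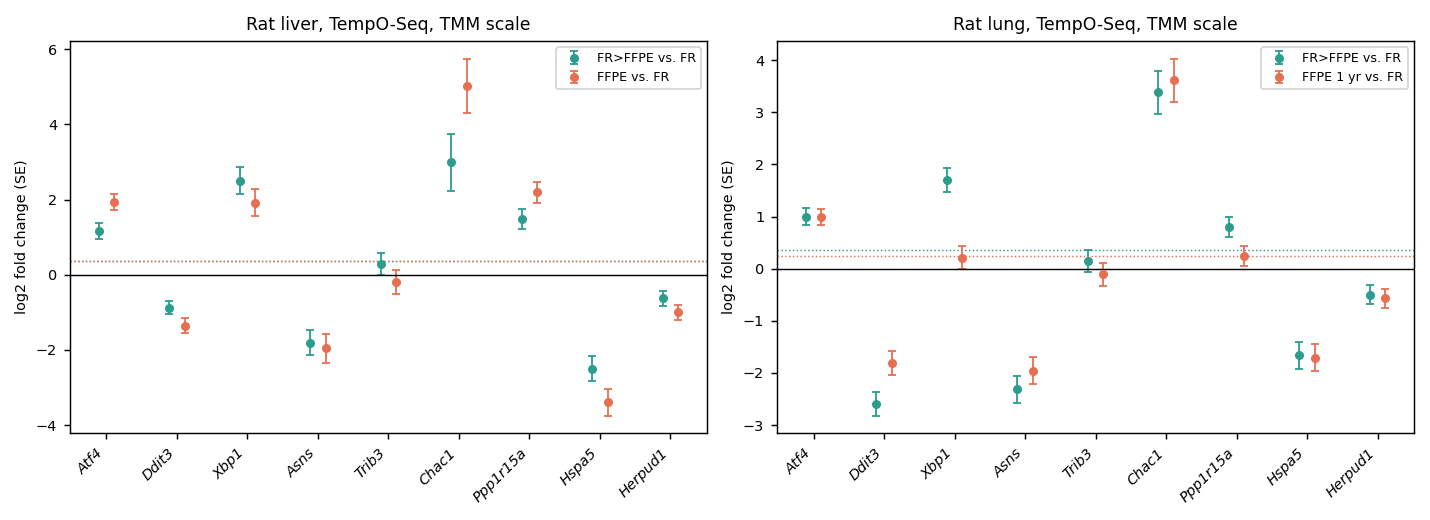
Log2 fold change against frozen tissue (vertical axis, with SE bars) of the 9 genes tested in rat liver and rat lung, with the median of all genes as dotted lines. Hspa5 and Asns lie below 0 and Atf4 and Chac1 above 0 in all 4 comparisons. On this TMM scale Xbp1 is near 0 in lung FFPE 1 yr alone.

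Rat lung gave 6 DEGs of 9 for FR > FFPE vs. FR beside 56% of all genes and 4 of 9 for FFPE 1 yr vs. FR beside 53.3% (edgeR with TMM, adjusted over 2322 genes). Of the 6 frozen libraries, 1 with 12 counts was left out. Ranges were apart for 7 of 9 genes (65.5% of all genes) and 5 of 9 (64.2%). These shares were close to those of all genes.

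Ddit3 and Asns had the widest falls in lung. Ddit3 was 648.6, 777.6 and 892.2 CPM in FR (n = 5), 87.8, 119.7 and 181.9 in FR > FFPE and 112.7, 229.6 and 289.2 in FFPE 1 yr, with log2 changes of −2.59 (SE 0.226, adjusted p = 2.73e-09) and −1.81 (SE 0.221, adjusted p = 3.28e-07) by edgeR. Asns was 460.1, 529.5 and 548.8 CPM in FR, 32.6, 114.4 and 158.3 in FR > FFPE and 107.1, 123 and 157 in FFPE 1 yr (−2.32, adjusted p = 1.15e-07, and −1.96, adjusted p = 1.2e-06). In both genes frozen and embedded libraries were far apart. Hspa5 went from 1629, 1773 and 2558 CPM to 229.8, 594.7 and 1011 and to 449.1, 590.8 and 762.8 (−1.66, adjusted p = 6.61e-06, and −1.7, adjusted p = 5e-06).

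Atf4 was higher in both embedded lung groups, at 1215, 1274 and 1568.5 CPM in FR, 1829, 2765.5 and 3023 in FR > FFPE and 1975, 2668 and 3257 in FFPE 1 yr (1, adjusted p = 8.85e-06, and 0.99, adjusted p = 1e-05, the second short of 2-fold). Xbp1 separated the 2 embedded groups. It was 196.1, 231.4 and 271 CPM in FR and 226.9, 266.3 and 330.6 in FFPE 1 yr, which overlapped (0.21, adjusted p = 0.393), but 451.2, 614.6 and 1342 in FR > FFPE (1.69, adjusted p = 1.19e-06). The overlap depended on the scale. In CPM of the total counts, without TMM, Xbp1 was 136.1 to 190.1 in FR and 251.4 to 410.1 in FFPE 1 yr, which were apart. FFPE 1 yr lay below FR > FFPE without overlap (−1.48, SE 0.216, adjusted p = 8.6e-05), which made Xbp1 the 1 DEG and the 1 separate range of 9 in that comparison, beside 12.8% and 11.9% of all genes. The 2 embedded lung groups differed both in prior freezing and in the time in NBF, which cannot be told apart.

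Of the other lung genes, Ppp1r15a, Herpud1 and Trib3 changed less. Ppp1r15a gave 0.81 (adjusted p = 0.000727) in FR > FFPE and 0.25 (adjusted p = 0.245) in FFPE 1 yr. In CPM of the total counts, without TMM, Ppp1r15a was 152 to 190.3 in FR and 259.7 to 409.8 in FFPE 1 yr, which did not overlap. Herpud1 gave −0.5 (adjusted p = 0.015) and −0.57 (adjusted p = 0.00691), of which the first did not pass without FR library 52 (−0.41, adjusted p = 0.0552) and both turned positive with total counts (0.19 and 0.18). Trib3 was 142.8 to 178.1 CPM in FR and overlapped both embedded groups. Chac1 had 13 counts in FR, 150 in FR > FFPE and 134 in FFPE 1 yr, with ratios of 10.8 (95% counting interval 6.13 to 20.8) and 12.7 (7.2 to 24.5). Some marker lists were lower in embedded lung as well. The endothelial list (1 of 4 markers with counts) stood at 5045 to 6418 CPM in FR, 2711 to 3788 in FR > FFPE and 1515 to 3167 in FFPE 1 yr, and the cholangiocyte list (2 of 4, Epcam and Sox9 being listed at 0) at 2669 to 3121, 810.5 to 1616 and 818.4 to 1909. Red blood cell markers (2 of 4) stood at 1622 to 1971 CPM in FR and 394.1 to 699.8 in FR > FFPE, and at 841.9 to 1801 in FFPE 1 yr, which overlapped FR. Their part in the lung results was not tested. All 6 lung epithelium markers were listed at 0 in every library of both rat tables, so the tissue label could not be checked with them.

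In both rat tissues 5 of the 12 sensors and kinases were tested. Atf6b was higher and Atf6, Eif2ak2 and Eif2s1 were lower DEGs in all 4 comparisons with FR, which made 4 of 5 in each, beside 49.9% (FR > FFPE) and 64.3% (FFPE) of all genes in liver and 56% (FR > FFPE) and 53.3% (FFPE 1 yr) in lung. Of 9 other amino acid response genes tested, Atf5 and Phgdh, the first enzyme of serine synthesis, were higher DEGs in all 4 comparisons with FR, and 7 of 9 were higher in rat liver FFPE vs. FR, beside 39.9% of all genes.

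**Figure D5:**
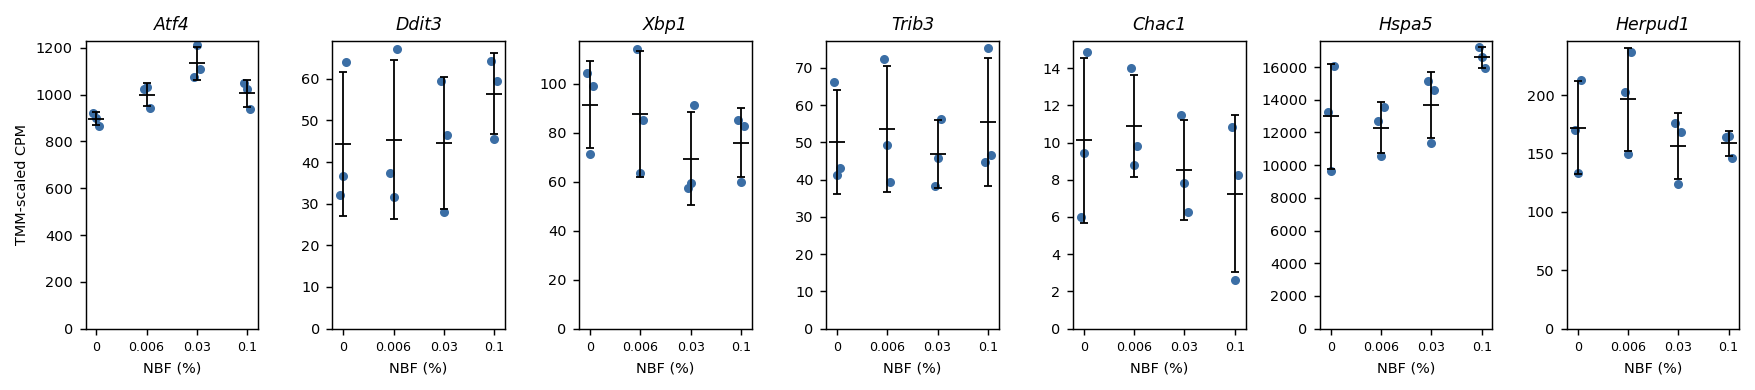
CPM after TMM scaling (vertical axis) of the 7 genes tested in AML12 cells by NBF concentration (%), with 3 libraries and their mean at each dose. Atf4 lies above the vehicle libraries at all 3 doses, with the highest values at 0.03%.

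In AML12 cells, 10 minutes of dilute NBF gave no change of the 10 genes that passed the test. Of 7 tested, 0 were DEGs at 0.006%, 0.03% and 0.1% NBF beside 0%, 0% and 4.84% of all 1570 genes tested (edgeR with TMM, with 0 also by DESeq2), and 0, 1 and 0 had an unadjusted p under 0.05 beside 1.78%, 3.95% and 32.4% of all genes. Atf4 was 866.3, 902.6 and 923.8 CPM in vehicle cells, 942.1, 1026 and 1033 at 0.006%, 1078, 1111 and 1214 at 0.03% and 940.5, 1025 and 1051 at 0.1%. It was the only gene of the 7 whose range left that of vehicle, at every dose, beside 5.86%, 9.75% and 37.6% of all genes. The log2 changes were 0.16, 0.34 and 0.17 (adjusted p = 1, 0.974 and 0.354), and with total counts as library size the 0.1% value was 0.37 (adjusted p = 0.0291).

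Hspa5 was 9624.5, 13276 and 16043 CPM in vehicle cells and 15949, 16646 and 17212.5 at 0.1% NBF, which overlapped (0.36, adjusted p = 0.18, and 0.56, adjusted p = 0.0355, with total counts). Asns and Ppp1r15a were listed at 0 in all 12 libraries and Fgf21 had at most 4 counts, where 2658 of 24540 listed genes had any count, so whether the panel measures them cannot be told from the table. In the other pathway lists 0 genes were DEGs at any dose, of 4 sensors and kinases, 13 amino acid response genes, 7 tRNA synthetases, 7 chaperones and 3 degradation genes tested. Of the 5 hepatocyte markers, Apoa1 and Ttr had counts in every AML12 group, and Fgb only at 0.03% and 0.1% NBF. The sum of the list was 110.2 to 503.6 CPM in vehicle cells and 84.4 to 400.7 at 0.1% NBF. The cholangiocyte list, of which Krt7 and Krt19 had counts, was 216.7 to 267.1 CPM in vehicle cells and 186.1 to 381.7 at 0.1% NBF. Alb and Tat were listed at 0 in the AML12 libraries, so the hepatocyte label could not be checked with them.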

How the data were processed

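The genes and the pathway and marker lists were chosen with earlier results of these data known. For mouse liver, the authors deposited estimated counts per RefSeq gene, made with CASAVA 1.8.2, STAR 2.5.3a and the expectation-maximization step of Partek Flow on GRCm38/mm10, and log2 CPM scaled to all reads. Of these values 92.2% were whole numbers, and the counts were rounded. Genes whose geometric mean (offset 0.0001) exceeded 1 were kept, and edgeR 4.0.16 (R 4.3.3) was fitted to all 48 libraries with the total of kept genes as library size. The TempO-Seq counts the authors deposited (builds mm10 and rn6 per the labels, aligner for these not given in the sources used here) were fitted per table with filterByExpr and TMM, and libraries under 100000 counts were left out. DESeq2 1.42.0, limma 3.58.1 on the deposited log2 CPM, other library sizes, other filters and left-out libraries were alternatives, and the steps were tested on simulated data. All 10 genes were named. The pathway genes named were those that passed. Same-numbered mouse libraries come from 1 animal: their deviations from group means correlated at 0.25 to 0.69 over 72 pairs, and 72 of 72 correlated best with their own mouse. TempO-Seq libraries carry no number that pairs them, and whether they came from separate animals or cultures is not stated, so their p-values measure the spread between libraries. No pair of libraries held identical values. Counting intervals cover counting error only.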

Additional observations from a re-analysis of the deposited data

Results flagged for a closer look

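In 10 of 134 groups of 4 to 10 libraries 1 library lay far from the rest by Dixon's 95% criterion, which chance alone meets in about 1 group in 20. Con mouse 90C was highest of the Con mice for Herpud1 in all 4 preparations and far from the rest in 3: 331.6 CPM in FR (next 198), 314.1 in FR > OH (next 198.1) and 285.4 in FFPE (next 163.4). Con mouse 8C had the highest Xbp1 in FR at 398.8 CPM (next 308.9), and Con mouse 21C the highest Ppp1r15a in FR > FFPE at 16.1 CPM (next 11.9). In rat liver, Atf4 was 287.1 CPM in FR library 68 (next 205.8) and 767.7 in FR > FFPE library 75 (next 444.1), and Chac1 was 6.55 CPM in FR > FFPE library 78 (next 2.19). In rat lung, Atf4 was 1568.5 CPM in FR library 50 (next 1277) and Ppp1r15a 730.3 in FR > FFPE library 57 (next 453.2).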

How the results depend on the processing

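The number of DEGs among the 10 genes was 1 for FFPE vs. FR, and became 4 by adjusted p alone, 4 scaled to all reads (Asns, Fgf21, Herpud1 and Hspa5), 3 with limma on the deposited log2 CPM and 0 with a lane term. With TMM and with DESeq2 it stayed 1, with Hspa5 in place of Ppp1r15a. By adjusted p alone it was 2 for FR > FFPE vs. FR, 1 for FR > OH vs. FR, 4 for rat liver FFPE vs. FR > FFPE (3 with total counts) and 3 for rat lung FFPE 1 yr vs. FR > FFPE. For PB it became 1 with limma in FR and in FR > OH, and 2 in FR > FFPE with TMM, DESeq2 and the replicate block by mouse. The block brought 19 results of single genes past the threshold, each given above where it passed, and took none below it. For PB the block added no animals, and those results carry the limit given above. With lane as a further term, 7 results of single genes that had passed without the block did not, each given above. In FR alone 2 pairs of genes passed across mice. Leaving out mouse 21C, each frozen rat lung or AML12 library or the shallowest rat liver FFPE library moved no count of DEGs by over 1.5 times, although without mouse 21C the 2 DEGs for PB in FR were Asns and Trib3.

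Signs turned with the scale. For FFPE vs. FR, log2 changes scaled to all reads and with limma were −0.47 and −0.47 for Atf4, −0.33 and −0.39 for Ddit3 and −0.63 and −0.63 for Xbp1, and Trib3 was −0.53 with limma. For FR > FFPE vs. FR, Atf4 was −0.04 (TMM), −0.12 (all reads), −0.051 (DESeq2) and −0.13 (limma). For FR > OH vs. FR, Atf4 was −0.043 and −0.038 and Xbp1 −0.28 and −0.29. For FFPE vs. FR > FFPE, Atf4 was −0.36 and −0.35, Ddit3 −0.47 and −0.49, Xbp1 −0.41 and −0.41 and Ppp1r15a −0.101 and −0.103. With total counts in rat, Herpud1 was 0.076 (liver FR > FFPE), 0.63 (liver FFPE), 0.55 (liver FFPE vs. FR > FFPE), 0.19 (lung FR > FFPE) and 0.18 (lung FFPE 1 yr), Ddit3 0.21 (liver FFPE) and Trib3 1.38 (liver FFPE) and 0.62 (lung FFPE 1 yr). The median of all genes for FFPE vs. FR was 0.32, 0.04 with TMM and −0.63 scaled to all reads.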
